A study of Physcomitrium patens with 3 samples.

Results

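The loci described here come from the locus list of a double-stranded RNA study in Physcomitrium patens. They are the nuclear loci on the late-numbered scaffolds of the genome (small-scaffold loci in the plots). The rule took every locus whose name places it on a scaffold numbered 500 or more. The rule found 1341 loci on 539 scaffolds, of 39975 loci in the whole locus list and 39907 nuclear loci. They were 3.36% of the nuclear loci and 6.31% of the nuclear locus length, yet they held 84.3% (95% interval 84.2 to 84.3%) of the nuclear locus reads in the rdr2 library, 79.0% (79.0 to 79.1%) in the rdr6 library and 81.6% (81.5 to 81.6%) in the wild-type library. Of these reads a few loci held most, and on the RPM scale 10 of them lay 2.27 to 2.87-fold above wild-type in rdr2, while 65 of the 186 loci with at least 20 reads were at least 4-fold lower, a rule that 26.2% of all loci examined met. Under each of 3 other scalings 10 of the 186 were lower and 11 higher. Of all loci examined, 5.77 to 7.41% were then lower and 2.44 to 3.45% higher.

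The study sequenced double-stranded RNA from whole protonemata, the filamentous young stage of this moss, in 1 library for each of 3 genotypes: the rdr2 mutant, the rdr6 mutant and the wild-type. All 3 were 10-day-old cultures on BCD medium with 50 mM ammonium tartrate, grown at 22 °C with 16 h of light and 8 h of dark. The kind of mutant allele and the number of independent lines were not given in the sources used here. Total RNA was depleted of ribosomal RNA by a hybridization kit and digested with RNase One, an enzyme that removes single-stranded RNA, before the library was made. The number of depletion rounds for each library cannot be read from the labels. One deposited table, that of rdr2 by its label, is named with a different rdr number. Its label is followed here. The loci carry no gene names, so the transcripts of the mutated genes and the markers of the tissue could not be checked.

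RNA-dependent RNA polymerases copy a single-stranded RNA into its complement and so make double-stranded RNA, which Dicer enzymes cut into small RNAs. In flowering plants, RDR2 acts with RNA polymerase IV in the pathway that makes heterochromatic small interfering RNAs, mainly from transposons and other repeats. RDR6 of flowering plants acts on cleaved and aberrant transcripts and makes the precursors of trans-acting small interfering RNAs, and moss RDR6 is needed for that class too. Double-stranded RNA also forms without these enzymes, where a transcript folds back on itself or where both strands are transcribed. In a draft genome the late-numbered scaffolds are as a rule the short pieces that could not be joined to longer ones, often because their sequence is repeated. Reads of a repeated sequence match several places, and the count of each place then depends on how such reads were placed, a step not given in the sources used here.

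The libraries had totals of 9703589 reads for rdr2, 9346065 for rdr6 and 6992264 for wild-type, as recovered from the deposited counts and RPM values (reads scaled to the library total). The loci on scaffolds numbered 500 or more held 6214111 reads in rdr2, 4238850 in rdr6 and 3416579 in wild-type. That was 71.4%, 52.5% and 57.7% of the reads in all loci, in the same order, since plastid and mitochondrial loci are then counted too. A single read was worth 0.103 RPM in rdr2, 0.107 in rdr6 and 0.143 in wild-type. With 1 library per genotype no difference between genotypes has a replicate check, no test was possible, and every interval given here is an exact Clopper-Pearson 95% interval for counting error only. Directions are given on the RPM scale. Other scalings of the rdr2 library raised every log2 ratio to wild-type by 1.16 to 1.37, so that loci a little below wild-type in RPM lay above it there. In whole tissue, fewer cells of a type and less RNA per cell cannot be told apart.

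Most of these loci were silent or nearly so. In all, 850 of the 1341 had no read in any library. At least 1 read was seen at 292 loci (21.8%) in rdr2, 405 (30.2%) in rdr6 and 379 (28.3%) in wild-type, close to the 21.5%, 32.6% and 28.9% of the nuclear loci on lower-numbered scaffolds. A count of 0 allows up to 3 reads, or 0.309 RPM in rdr2, 0.321 in rdr6 and 0.429 in wild-type. Their reads came from 268 of the 539 scaffolds. The scaffolds nearest to the rule's limit were almost empty on both sides. On scaffold_500 the 4 loci held only 2 wild-type reads, at Cluster_38570, and on scaffold_497, the next scaffold outside the rule, the 3 loci held only 1 rdr6 read, at Cluster_38564.

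A small class of these loci was very abundant. At least 1000 reads over the 3 libraries were reached by 101 loci (7.53%), against 201 of 38566 other nuclear loci (0.521%). At least 10000 reads were reached by 69 loci, against 30 of the other nuclear loci. Pooled over their length, the loci had 3406 RPM per kb in rdr2, 2412 in rdr6 and 2599 in wild-type, whereas the other nuclear loci had 42.8, 43.1 and 39.5 RPM per kb. Among loci with at least 20 reads, which 186 of these loci (13.9%) and 3523 other nuclear loci (9.13%) had, the median was 49.9 RPM per kb in rdr2, 323 in rdr6 and 227 in wild-type, beside 6.18, 15.7 and 16.0 RPM per kb for the other nuclear loci. The pooled value was thus highest in rdr2 and the median lowest in rdr2.

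The reads were concentrated in few loci, most of all in rdr2. Ranked by reads summed over the 3 libraries, the 5 highest loci held 46.5% (46.5 to 46.6%) of the reads of these scaffolds in rdr2. The same 5 loci held 23.3% (23.2 to 23.3%) in rdr6 and 27.3% (27.2 to 27.3%) in wild-type. Ranked within each library, as few as 6 loci made up 50% of the reads in rdr2, against 15 in rdr6 and 13 in wild-type. In the same ranking, 90% came from 29, 48 and 44 loci. The loci with fewer than 1000 reads over the 3 libraries held 0.0341% of the reads in rdr2, 0.187% in rdr6 and 0.176% in wild-type. On lower-numbered scaffolds the 5 highest loci by the sum held an even larger share, 79.3% in rdr2, 31.2% in rdr6 and 37.6% in wild-type. The reads of those scaffolds had a long tail, however. Ranked within each library, 99% there took 2679 loci in rdr2, 5671 in rdr6 and 5525 in wild-type. On the scaffolds numbered 500 or more it took 58, 77 and 75 loci.

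**Figure D1:**
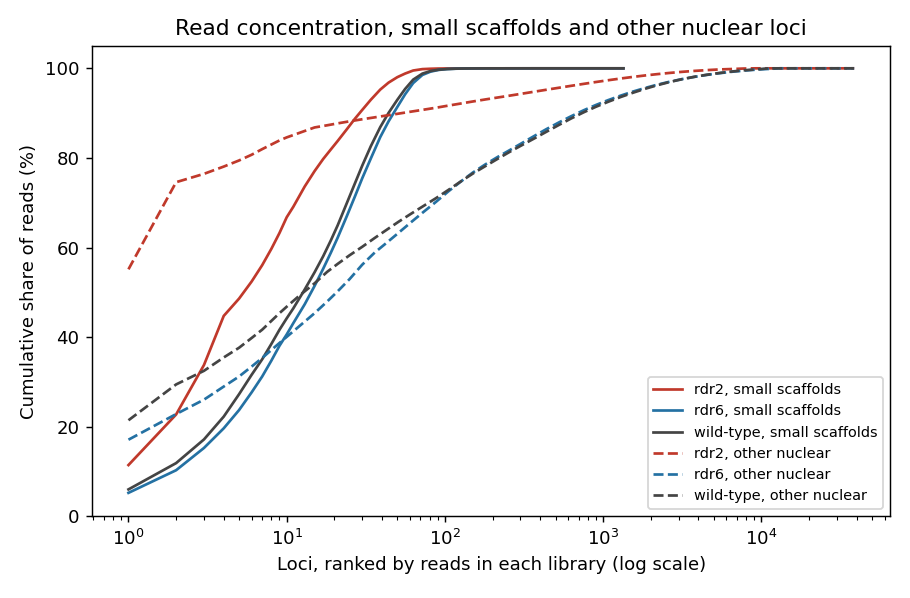
Cumulative share of reads (percent) against the number of loci, ranked by reads in each library (log scale), for the loci on scaffolds numbered 500 or more and the other nuclear loci. In rdr2 6 loci on the late-numbered scaffolds reached 50% of the reads, against 15 in rdr6 and 13 in wild-type, and all 3 curves came close to 100% within 77 loci.

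The reads lay on a handful of scaffolds as well. The 30 scaffolds with at least 10000 reads carried 111 loci and 99.9% of the reads in rdr2, 99.3% in rdr6 and 99.4% in wild-type. Summed over the libraries, the scaffold with most reads was scaffold_699, with 1577514 reads in rdr2, 753719 in rdr6 and 673248 in wild-type, or 25.4%, 17.8% and 19.7% of the reads of these scaffolds. Next came scaffold_571 with 475854, 671910 and 471769 reads, and scaffold_557 with 645806, 408752 and 330580 reads, in rdr2, rdr6 and wild-type. Within a library the order differed, and in rdr2 scaffold_758 and scaffold_4104 exceeded both of these. By the sum, the next were scaffold_758 with 742870 reads in rdr2, 244979 in rdr6 and 227595 in wild-type, and scaffold_4104 with 686508, 172712 and 174226 reads. In RPM, rdr2 exceeded wild-type by 2.84-fold on scaffold_4104, 2.35-fold on scaffold_758, 1.69-fold on scaffold_699 and 1.41-fold on scaffold_557, while scaffold_571 had a ratio of 0.727. Of the 30 scaffolds, 9 lay above wild-type in rdr2 and 9 in rdr6.

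Long loci held most of the reads, and some abundant loci lay at the start of their scaffold. The 937 loci of 30 bp or less had a read in 26.4% of cases and held 0.0033% of the reads in rdr2, 0.0166% in rdr6 and 0.0118% in wild-type. The 44 loci over 1000 bp all had reads and held 68.1% of them in rdr2, 65.8% in rdr6 and 66.6% in wild-type. A start within 100 bp of the first base of the scaffold was seen at 47 loci (3.50%), 24 of which were among the 101 with at least 1000 reads, against 5 of the other nuclear loci (0.0130%), 2 of which did. The 539 late-numbered scaffolds carried 2.49 loci each and the 485 lower-numbered ones 79.5. The cause of the difference in starts was not tested. Of the 30 scaffolds with most reads, 17 had exactly 2 loci, and in 15 of those the first locus began within 100 bp of the scaffold start.

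Of the 15 loci with most reads, 4 stood far above the rest in rdr2, and less so or not at all in rdr6 and wild-type. Cluster_39122 (scaffold_699, positions 6871 to 10023, 3153 bp) had 73204 RPM in rdr2, 23704 in rdr6 and 29291 in wild-type. Its neighbour Cluster_39121 (positions 4995 to 6256, 1262 bp) had 72271, 22554 and 28683 RPM. The loci Cluster_39800 (scaffold_4104, positions 7802 to 9028, 1227 bp) and Cluster_39201 (scaffold_758, positions 1 to 959, 959 bp) had 70746 and 70221 RPM in rdr2, 18474 and 17867 in rdr6, and 24912 and 24444 in wild-type. These 4 loci lay 2.50 to 2.87-fold above wild-type in rdr2, and their ratios for rdr6 to wild-type were 0.731 to 0.809. Coordinates are those of the deposited locus list, whose genome build was not given in the sources used here. No annotation was looked up at them.

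A second set of 6 loci had the same profile at a lower level. It was made of Cluster_39267 and Cluster_39269 on scaffold_802, Cluster_38911 and Cluster_38908 on scaffold_557, Cluster_39169 on scaffold_742 and Cluster_39787 on scaffold_3692. These loci, 821 to 3505 bp long, were put together by a rule of similar counts given below, which did not use length. Their counts were 218832 to 240143 reads in rdr2, 58087 to 84080 in rdr6 and 57839 to 75272 in wild-type. They lay 2.27 to 2.73-fold above wild-type in rdr2, with ratios of 0.751 to 0.839 for rdr6. The remaining 5 of the 15 loci with most reads had less RPM in rdr2 than in wild-type, but more than wild-type under each of the 3 other scalings. Among them Cluster_39120 (scaffold_699, positions 1158 to 4519) had 11627 RPM in rdr2, 22897 in rdr6 and 25827 in wild-type and was 2.22-fold lower in rdr2 (2.20 to 2.24) on the RPM scale, with log2 ratios of -1.15 there and 0.01, 0.07 and 0.22 under the other scalings.

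**Figure D2:**
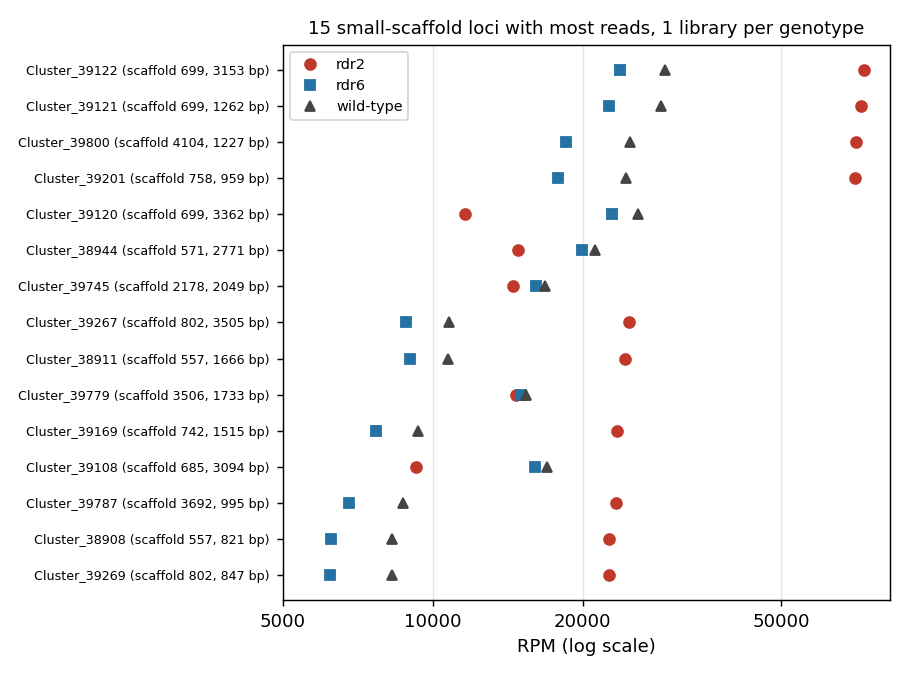
Level in RPM (log scale) of the 15 loci with most reads on scaffolds numbered 500 or more, with 1 point per library for rdr2, rdr6 and wild-type. The rdr2 point lies to the right of the wild-type point at 10 loci, by 2.27 to 2.87-fold, and to its left at the other 5, which lay above wild-type under the 3 other scalings.

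Per unit length and summed over the libraries, the order was another one. Of the loci over 30 bp, Cluster_39201 had most, with 73224 RPM per kb in rdr2, 18631 in rdr6 and 25489 in wild-type. Cluster_39800 with 57657, 15057 and 20303 RPM per kb and Cluster_39121 with 57267, 17872 and 22728 RPM per kb came next. The following loci were Cluster_38908, with 27469 RPM per kb in rdr2, 7629 in rdr6 and 10080 in wild-type, and Cluster_39269, with 26668, 7338 and 9766 RPM per kb. This order is by the sum over the 3 libraries, to which rdr2 gave most, and all 5 belonged to the sets of 4 and 6 loci. In rdr6 or wild-type alone, other loci came before some of these, among them Cluster_38951 (124 bp), with 2246 RPM per kb in rdr2, 17322 in rdr6 and 12768 in wild-type. Within each of the 2 sets, loci of unlike length had counts that spanned no more than 1.45-fold in any library. The sets were formed by linking loci with similar counts, so a narrow span follows largely from the grouping.

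Loci linked by similar counts in every library were common. Among the 101 loci with at least 1000 reads, 66 (65.3%) could be linked to another whose counts were similar in each of the 3 libraries, the higher no more than 25% above the lower, in 16 groups of which 6 were pairs. Each of the 16 groups had loci on more than 1 scaffold. The same rule linked 149 of the 201 other nuclear loci with at least 1000 reads (74.1%), in 23 groups, so that similar counts were not particular to the late-numbered scaffolds. The largest group had 17 loci on 11 scaffolds, but through chained links, with counts that spanned 2.27-fold in rdr2, 2.85-fold in rdr6 and 2.33-fold in wild-type. Chaining took some smaller groups past the limit too. In rdr6 the set of 4 loci spanned 1.33-fold, the set of 6 loci 1.45-fold and a group of 5 loci 1.69-fold. The counting of reads with several matching places was not given in the sources used here. Its part in the similar counts was not tested.

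A pair of groups were made of short loci of equal or nearly equal length. One held 4 loci of 124 bp each, Cluster_38949, Cluster_38951 and Cluster_38954 on scaffold_571 and Cluster_39780 on scaffold_3523. Their counts were 2702 to 2819 reads in rdr2, 19808 to 20075 in rdr6 and 10987 to 11124 in wild-type. In RPM they lay 5.48 to 5.69-fold below wild-type in rdr2, and at 1.34 to 1.36 times the wild-type level in rdr6. Another held 4 loci of 126 or 127 bp, Cluster_38906 and Cluster_38910 on scaffold_557, Cluster_39166 on scaffold_742 and Cluster_39785 on scaffold_3682, with 693 to 761 reads in rdr2, 5058 to 5181 in rdr6 and 2787 to 2941 in wild-type. Its ratios were 0.178 to 0.186 for rdr2 and 1.31 to 1.39 for rdr6, close to those of the 124 bp loci at a lower level. Both groups lay below wild-type in rdr2 under every scaling.

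Some loci on lower-numbered scaffolds had counts like those of the late-numbered ones. Of the 201 other nuclear loci with at least 1000 reads, 66 had counts similar by the same limit to those of a locus on a scaffold numbered 500 or more. So had 1 of 14 plastid and 1 of 14 mitochondrial loci with at least 1000 reads. Length was not part of the limit, and some matched loci differed widely in it, such as Cluster_27213 (120 bp) and Cluster_39786 (1374 bp). Among the 66 were the only 2 other nuclear loci with at least 100000 reads. Cluster_15461 (scaffold_73, positions 18441 to 20433) had 640202 reads in rdr2, 192323 in rdr6 and 165433 in wild-type, within 1.11-fold of Cluster_39800, and lay 2.79-fold above wild-type in rdr2 (2.77 to 2.80). Cluster_34997 (scaffold_334, positions 24720 to 26207) had 225848, 64400 and 61755 reads, within 1.01-fold of Cluster_39787, and lay 2.64-fold above it (2.61 to 2.66). On the same scaffold_334 the 127 bp locus Cluster_34993 had 744 reads in rdr2, 5222 in rdr6 and 2783 in wild-type, within 1.04-fold of Cluster_39785 with its 126 bp. The profile of the most abundant loci was therefore not limited to scaffolds numbered 500 or more.

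**Figure D3:**
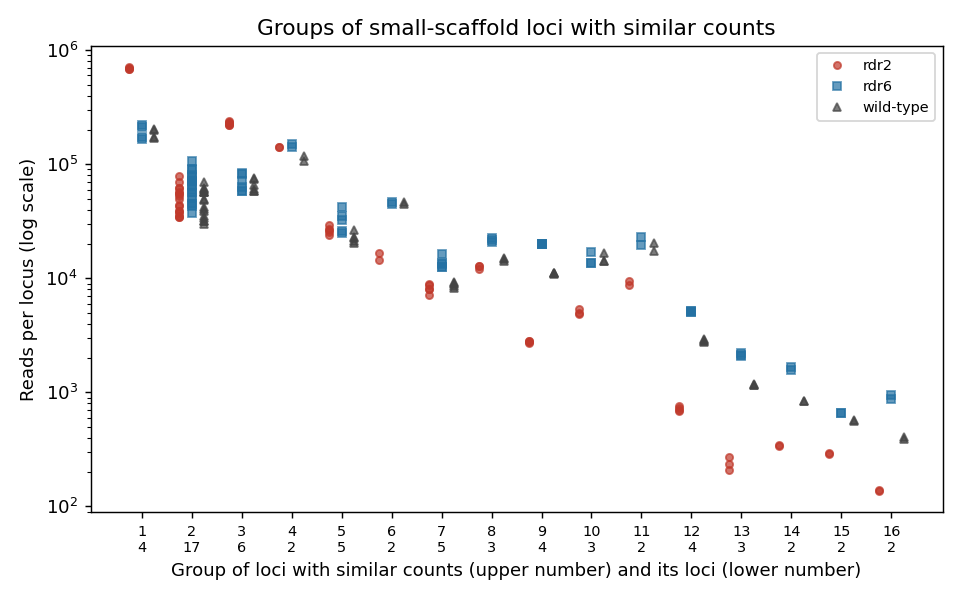
Reads per locus (log scale) in the rdr2, rdr6 and wild-type libraries for the 16 groups of loci with similar counts, with 1 point per locus and the number of loci under each group. In groups 1 and 3, the sets of 4 and 6 loci with the highest rdr2 counts, the rdr2 points stand above the others, and in groups 9 and 12, the 124 bp and the 126 to 127 bp loci, the rdr2 points stand below.

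Summed over all loci of these scaffolds, rdr2 had 640393 RPM and wild-type 488623 RPM, a ratio of 1.31 (1.31 to 1.31). On the RPM scale the sum went against most single loci. Of the 186 loci with at least 20 reads, 22 (11.8%) lay above wild-type in rdr2, near the 11.3% of all 3763 loci examined. Under the 3 other scalings, described below, 76, 80 and 84 of the 186 did. By the rule of size used here, at least 4-fold either way and the whole interval past 2-fold, 65 of 186 (34.9%) were lower in rdr2 and 0 were higher, where 26.2% of all loci examined were lower and 0.505% higher. The median log2 ratio was -1.53, beside -1.41 over all loci examined and -1.40 over the other nuclear loci.

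The 10 loci of the sets of 4 and 6 described above carried the sum. They held 4148115 reads in rdr2, 1190660 in rdr6 and 1142823 in wild-type, or 66.8%, 28.1% and 33.4% of the reads of these scaffolds, on 8.48% of the locus length. Without them, a setting chosen after the data were seen, rdr2 had 212911 RPM and wild-type 325182 RPM, so that on the RPM scale the sum was 1.53-fold lower in rdr2 (1.52 to 1.53). They were left out for being high in rdr2, so the ratio of the rest had to fall below the 1.31 of the full sum, though not below 1. Under the 3 other scalings the rest lay above wild-type. With each group of similar counts counted once, also chosen afterwards, the ratio was 0.959 on the RPM scale and over 1 under the other scalings. Only the locus with most reads of each group was kept there, which left out 50 loci, most of the 10 among them. The chained group of 17 loci, with counts that spanned up to 2.85-fold, was counted once too. Among loci with fewer than 1000 reads, rdr2 had 218 RPM and wild-type 861 RPM, 3.94-fold lower in rdr2 (3.75 to 4.14). Besides the 10 loci, the highest ratio among loci with at least 100000 reads was that of Cluster_38945, with an interval of 1.09 to 1.11, and the low-count Cluster_39290 had 38 reads in rdr2, 12 in rdr6 and 8 in wild-type, a ratio of 3.42 (1.57 to 8.49).

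The ratio in rdr2 differed between classes of abundance and of length, without a steady trend over abundance. Abundance here is the sum over the 3 libraries and so includes the rdr2 reads. A locus high in rdr2 is thereby moved towards the upper classes. The median log2 ratio was -1.41 in the 47 loci with 20 to under 100 reads, -2.34 in the 38 with 100 to under 1000, -2.43 in the 32 with 1000 to under 10000, -0.70 in the 32 with 10000 to under 100000 and -0.32 in the 37 with at least 100000. By RPM, none of the loci with 100 to under 10000 reads lay above wild-type in rdr2. The loci over 30 and up to 200 bp had in sum 3250 RPM in rdr2, 16376 in rdr6 and 12107 in wild-type and were 3.72-fold lower in rdr2 (3.68 to 3.77). The 4 loci of 124 bp described above held 11083 of the 31541 reads of this class in rdr2, 79636 of 153049 in rdr6 and 44274 of 84655 in wild-type. Longer loci of up to 1000 bp had a summed ratio of 1.33 and loci over 1000 bp one of 1.34. Single loci of these longer classes were mostly below wild-type on the RPM scale, with median log2 ratios of -1.71 and -0.47, and 9 of 86 and 7 of 42 loci examined lay above it. Loci met the rule for lower in 7 of 14 examined cases at 30 bp or less and 26 of 44 over 30 and up to 200 bp. They did so in 31 of 86 cases over 200 and up to 1000 bp, and in 1 of 42 over 1000 bp. Over all loci examined, of any length, the share was 26.2%. No share by length was computed for the other nuclear loci, so these counts do not show a trait of the late-numbered scaffolds. By abundance, the other nuclear loci had medians of -1.26, -1.60, -2.28 and -1.79 in the first 4 read classes. The 2 loci of their highest read class had a median of 1.44.

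**Figure D4:**
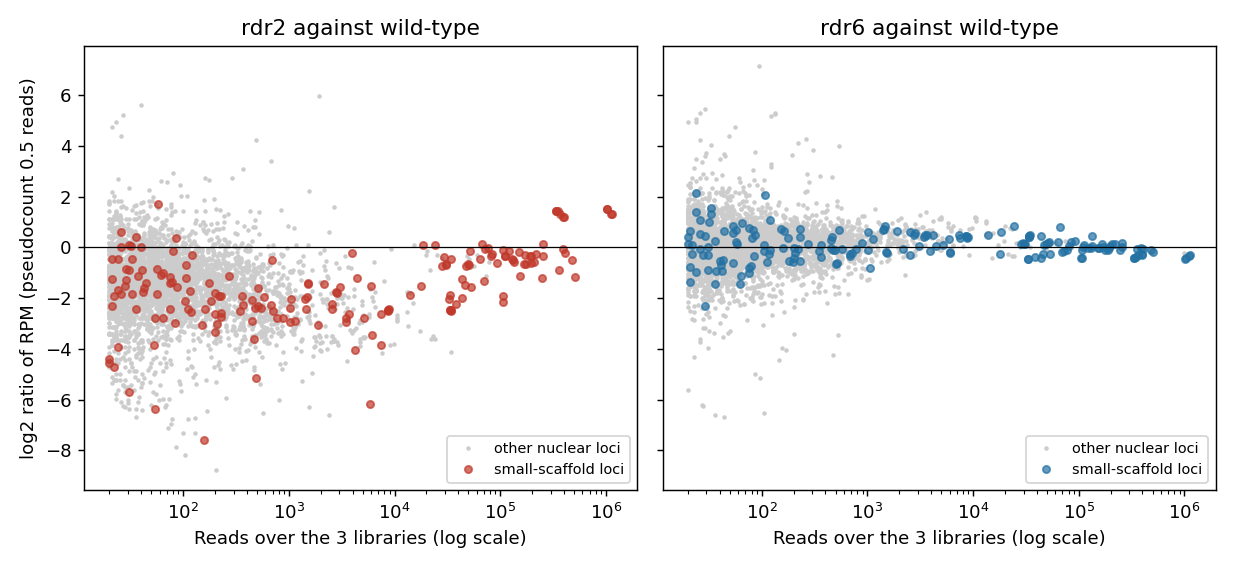
Log2 ratio of RPM to wild-type against reads over the 3 libraries (log scale) for the 186 loci with at least 20 reads on scaffolds numbered 500 or more (coloured) and the other nuclear loci (grey), for rdr2 and for rdr6, with a pseudocount of 0.5 reads. In rdr2 most loci lie below 0, with a median of -1.53, and 10 of the most abundant lie between 1.18 and 1.52, while in rdr6 the points scatter around 0, with a median of 0.02.

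The loci named as lowest in rdr2 are those whose interval lay farthest below wild-type, which favours loci with more reads over some with few reads and a lower ratio. Cluster_39749 (scaffold_2377, positions 29 to 251) had 41 reads in rdr2, 3682 in rdr6 and 2166 in wild-type, 73.3-fold lower in RPM in rdr2 (53.9 to 102). Cluster_39036 (scaffold_641, positions 12737 to 12779) had 0 reads in rdr2, 90 in rdr6 and 68 in wild-type, and was at least 24.9-fold lower in rdr2 by its exact interval. Set at the floor of 3 reads, rdr2 would be 31.5-fold lower. At Cluster_39456 (scaffold_997, positions 7 to 961) rdr2 had 8 reads, rdr6 268 and wild-type 214, which put rdr2 37.1-fold lower (18.5 to 87.1). On scaffold_539 a pair of loci behaved alike. Cluster_38817 (positions 39719 to 39955) had 119 reads in rdr2, 2646 in rdr6 and 1415 in wild-type, 16.5-fold lower in rdr2, and Cluster_38816 (positions 34099 to 34360) had 253, 4578 and 2634 reads, 14.4-fold lower. The rdr6 level of all 5 was near or above that of wild-type, with ratios of 0.937 to 1.40.

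The scale chosen matters for the rdr2 library. With trimmed-mean factors, median-of-ratios size factors, or totals that omit the top 1% of loci, the log2 ratio of every locus was 1.16, 1.22 or 1.37 higher, and the median over all loci examined became -0.25, -0.19 or -0.04. Under each of the 3, 10 of the 186 loci were lower and 11 higher, where all loci examined then had 7.41%, 6.94% or 5.77% lower and 2.44%, 2.82% or 3.45% higher. The 11 were the same loci under each, the 10 named above and Cluster_39290. The 10 lower ones were also the same under each and included the 5 lowest described above. Each scaling adds the same amount to every locus, so the median of these loci was -0.12 from that of all loci on the log2 scale by construction under each. Among the 37 loci with at least 100000 reads, 11 lay above wild-type on the RPM scale and 34 or 35 under the other scalings, and 35 lay above the median of all loci.

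Neighbours on 1 scaffold differed in direction. On scaffold_557, Cluster_38911 (positions 45533 to 47198) was 2.27-fold higher in rdr2, with 236282 reads in rdr2, 84080 in rdr6 and 74967 in wild-type. It lay between a pair of 127 bp loci on the other side of wild-type. Cluster_38910 (positions 45104 to 45230), with 761, 5181 and 2941 reads, was 5.36-fold lower in rdr2 (4.95 to 5.82), and Cluster_38912 (positions 47985 to 48111), with 532, 4479 and 2387 reads, was 6.23-fold lower (5.67 to 6.85). On scaffold_699 the inner loci Cluster_39121 and Cluster_39122 were 2.52 and 2.50-fold higher in rdr2 while the outer loci Cluster_39120 and Cluster_39123 were 2.22 and 2.28-fold lower. For rdr6 all 4 lay below wild-type, with ratios of 0.786 and 0.809 for the inner and 0.887 and 0.920 for the outer loci. On scaffold_571, 10 of 11 loci lay below wild-type in rdr2, the exception being Cluster_38945. The count on scaffold_571 holds for RPM only. Under the other scalings Cluster_39120 lay above wild-type under all 3 and Cluster_39123 under 2, being below it with trimmed-mean factors, while the 127 bp loci lay below wild-type under every scaling.

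**Figure D5:**
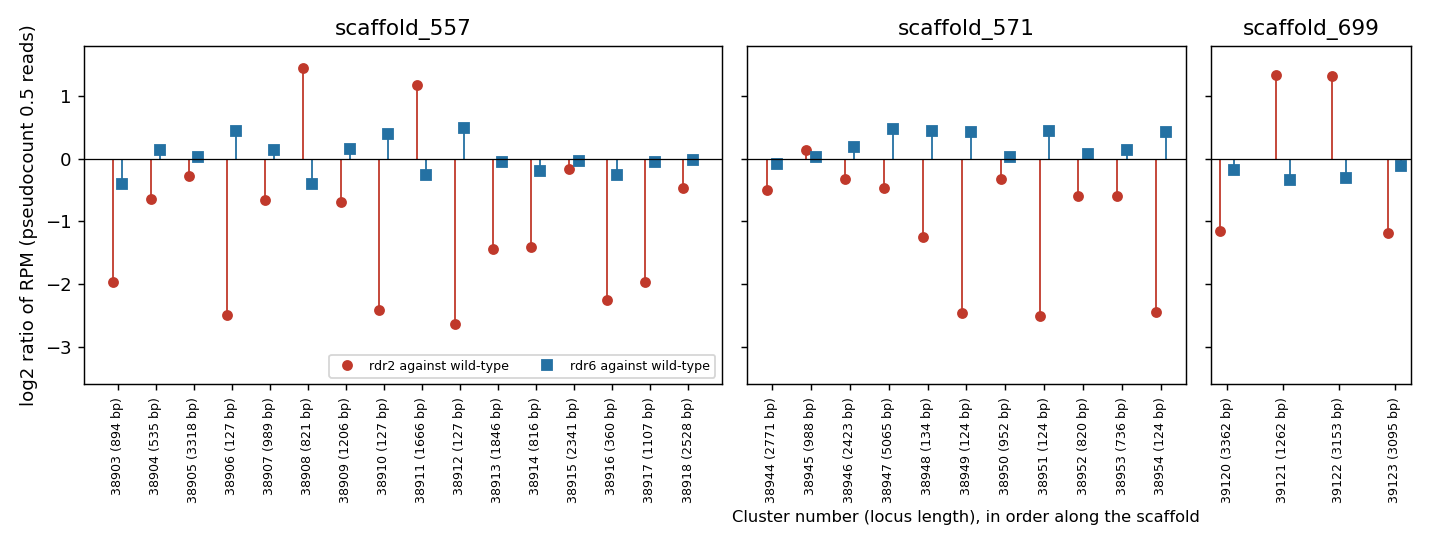
Log2 ratio of RPM to wild-type, with a pseudocount of 0.5 reads, for each locus with reads along scaffold_557, scaffold_571 and scaffold_699, for rdr2 and for rdr6. Loci above wild-type in rdr2 stand next to loci below it, as Cluster_38911 does between Cluster_38910 and Cluster_38912.

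In rdr6 the loci stayed close to wild-type, and the comparison shares its wild-type library with that of rdr2. Summed, rdr6 had 453544 RPM and wild-type 488623 RPM, a ratio of 0.928 (0.927 to 0.930), beside 1.09 for the other nuclear loci. Of the 186 loci examined, 95 (51.1%) lay above wild-type, near the 55.1% of all loci examined. By the rule of size 0 were lower, where 1.51% of all loci examined were, and 1 was higher, where 1.54% were. That locus was the 16 bp Cluster_39773 (scaffold_3303, positions 36596 to 36611), with 12 reads in rdr2, 81 in rdr6 and 14 in wild-type, 4.33-fold higher in rdr6 (2.44 to 8.27). The median log2 ratio was 0.02, beside 0.10 over all loci examined. The loci over 30 and up to 200 bp had a summed ratio of 1.35 for rdr6, whereas longer ones of up to 1000 bp had 0.916 and those over 1000 bp 0.918. Of the 153049 rdr6 reads in the first of these sums, 79636 lay at the 4 loci of 124 bp. The 10 loci highest in rdr2 had ratios of 0.731 to 0.839 for rdr6.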

How the data were processed

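The 3 deposited tables hold 39975 shared loci, each with a position, a name, its read count and its RPM value, per the file headers. Bowtie 0.12.9 and SAMtools are named in the submitters' processing notes. Build, locus caller, mapping settings and the placing of reads that match several loci were not given in the sources used here. The deposited count divided by the deposited RPM gave each library total, and RPM times this total gave back the count at 100% of loci. Strand is not given. Groups follow the genotype labels.

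Values were computed in Python 3.11.15 with scipy 1.17.1, pandas 2.3.3 and numpy 2.4.6, and plotted with matplotlib 3.10.9. R 4.3.3 with edgeR 4.0.16 gave the trimmed-mean (TMM) factors only. No test was run, as a single library per genotype allows none. Each ratio divides 1 library's RPM by another's and has an exact Clopper-Pearson 95% interval. PCR copies cannot be told from separate molecules here, as there are no molecular identifiers, so intervals and floors cover counting error only. A locus needed 20 reads in the 3 libraries' sum to be examined. A locus was called at a ratio of at least 4 with its interval wholly beyond 2-fold, and log2 ratios had a pseudocount of 0.5 reads. The scripts were tested on simulated data. Named loci were the 15 with most reads, the 5 highest and 5 lowest called loci of each comparison, the 5 over 30 bp with most RPM per kb, the 5 scaffolds with most reads, and the loci next to the limit of the rule. Loci in groups of similar counts, on these scaffolds, or outside them with matching counts, as well as Cluster_38945 and Cluster_39290, were named after their values were seen. Members and lists were chosen with earlier results of these data known. No genome sequence was used, and the gene table at hand, of another assembly, was not used either.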

Additional observations from a re-analysis of the deposited data

How the results depend on the processing

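No paired analysis was possible because each genotype has 1 library, and for the same reason no library could be left out. In order rdr2, rdr6 and wild-type, the share of nuclear locus reads was 23.2%, 25.3% and 25.6% on scaffolds numbered 1000 or more, 80.0%, 75.6% and 78.0% without scaffold_699, 71.4%, 52.5% and 57.7% of the reads in all loci, and 63.6%, 68.2% and 70.0% with each group of similar counts counted once, a setting chosen after the data were seen. The share of the 5 highest loci, ranked by the sum over the 3 libraries, was 73.1%, 44.8% and 48.5% on scaffolds numbered 1000 or more. Without scaffold_699 it was 40.8%, 21.8% and 24.98%. The summed ratio of rdr2 to wild-type was 2.93 with TMM factors, 3.05 with median-of-ratios size factors, 3.39 with reads outside the top 1%, 1.15 on scaffolds numbered 1000 or more, and 1.22 without scaffold_699. It turned below 1 with each group counted once, 0.959, and without the 10 loci of the 2 groups over 2-fold above wild-type, 0.655, where the loci were left out for being high in rdr2. Counting each group once left out most of these 10 loci too. For rdr6 the summed ratio was 0.873, 0.911 and 0.872 under the 3 scalings, 0.946 on scaffolds numbered 1000 or more, 0.950 without scaffold_699 and 0.951 with each group counted once, and it turned to 1.003 without the 10 loci. The loci lower in rdr2 numbered 10 under each of the 3 other scalings and 26 on scaffolds numbered 1000 or more, and the loci higher in rdr2 numbered 11 under each of these 3 and 0 in RPM. The median log2 ratio for rdr2 was -0.37, -0.31 and -0.16 under the 3 scalings. That for rdr6 changed sign, to -0.063, -0.0020 and -0.065 under them and to -0.053 with no read minimum. Loci in groups of similar counts numbered 38 within 1.1-fold and 17 on scaffolds numbered 1000 or more. The median summed RPM per kb of loci with a read, 23.8, was 80.1 for loci over 30 bp. The causes of these shifts were not tested, beyond the fewer scaffolds and loci that a setting leaves. The counts for rdr6, 0 lower and 1 higher, were the same under every setting run. For rdr2, the named loci Cluster_39120, Cluster_38944, Cluster_39745, Cluster_39779, Cluster_39108 and Cluster_39773 were below wild-type in RPM and above it under the 3 scalings, and none of them met the rule of size for rdr2. Depth limits the loci with under 20 reads, for which no ratio was called.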
